A study of Mus musculus with 13 samples.

Results

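The genes described here are 10 genes by which interneurons, the GABA-releasing neurons of the forebrain, and their birthplace in the ganglionic eminences are recognised: the transcription factors Dlx1, Dlx2, Dlx5, Lhx6, Nkx2-1, Satb1, Nr2f2 and Sp8, and the enzymes Gad1 and Gad2. They were chosen by name, each was represented by the brightest probe set that carries its symbol alone, and they are 10 of 19938 genes measured. RNA was taken from the cerebral meninges, the membranes over the brain, of newborn C57BL6 pups of postnatal day 0 from 1 litter, and each pup was hybridised to 1 Affymetrix Mouse Gene 1.0 ST array. The study asked which transcripts in the meninges change when signalling by the growth factor PDGF-C through its receptor PDGFRα is lowered. The 4 mutants were Pdgfc-/-; Pdgfra GFP/+, that is, they lacked both working copies of the ligand gene and carried 1 receptor allele replaced by a nuclear green fluorescent protein, which is a null allele. The 9 controls were littermates that the study pooled over Pdgfc+/+, Pdgfc+/- and Pdgfc-/- pups and pups that carried Pdgfra GFP/+ together with Pdgfc+/+ or Pdgfc+/-, and which control had which genotype is not stated in the labels.

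Cortical interneurons are not born in the cortex. They arise in the ganglionic eminences below it, where Nkx2-1 marks the medial eminence and Dlx1 and Dlx2 are expressed throughout, and they then migrate tangentially into the cortex, partly through the marginal zone just under the meninges. Lhx6 and Satb1 continue the programme of medial eminence interneurons, Nr2f2 and Sp8 are found in interneurons of caudal and dorsal lateral eminence origin, and Gad1 and Gad2 encode the enzymes GAD67 and GAD65, which make GABA from glutamate.

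Intensity is the brightness of a probe set on a linear scale, and changes are given as log2(intensity + 16) in mutants minus that in controls, so the fold of a dim gene is understated. A gene was said to rise or fall at an adjusted p under 0.05 (limma, two-sided, Benjamini-Hochberg adjustment over all 19938 genes). The targeted genes were read first, as a check of the labels. Pdgfc had 22.8 to 29.3 in the mutants and 103 to 275 in 8 of the controls, and control 2 had 5.88; the position of its probe set in the gene was not tested. Pdgfra had intensities from 788 to 1561 in mutants and from 1039 to 2255 in controls. The sexes were not balanced between the groups. Xist, which is expressed in females, was at 2.24 to 4.77 in the mutants and at 4.78 to 8.73 in controls 1, 5 and 8, where the Y-linked Eif2s3y was bright, and at 536 to 1019.6 in the other 6 controls. The 6 rises described next remained called without control 2. They also remained called when the Xist level entered the fit as a covariate, in which Dlx2 passed too (log2 fold change 0.78, limma adjusted p = 0.046).

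Of the 10 genes, 6 rose in mutant meninges, 0 fell and 4 did not pass the test. Among all genes, 8.58% rose and 6.31% fell, 1710 and 1258 genes. That balance depended on the scaling of the arrays, with 2668 rises and 3617 falls under quantile normalization and 5838 rises and 623 falls when arrays were centred on fibroblast genes. At an unadjusted p under 0.05, 0 of the 10 fell by limma, and 0 fell by tests with equal or with unequal variances. The median change of the 10 genes was 1.61, beside 0.0043 over all genes tested. The rises were unequal: Dlx1, Gad2, Dlx5, Lhx6 and Satb1 were each more than 4-fold higher, while 251 of all genes (1.26%) rose by that much, and Gad1 rose by less than 2-fold. The same 5 were those more than 2-fold higher, as were 3.28% of all genes. They also had every mutant above every control, as did 6.4% of all genes, and none of the 10 had every mutant below every control, as did 3.04%. In a bulk sample such as this, more cells of a type and more RNA per cell cannot be told apart.

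The genes come in pairs that sit or work together, and the probe sets of partners changed unequally. The partner with the smaller change read brighter in controls, with means of 124 for Dlx2 and 59.7 for Dlx1, and 94.3 for Gad1 and 60.3 for Gad2. Whether both probe sets of a pair respond equally to equal changes of RNA was not tested. Dlx1 and Dlx2 are neighbours on chromosome 2 with 0 protein-coding genes between them, and Gad1 and Gad2 are separate genes for the same reaction, yet 1 partner of each pair, Dlx1 or Gad2, was 14.0- or 10.1-fold higher in mutants and the other was less than 2-fold higher. The 250 bases before an annotated transcript start of each of these 4 genes are shown, so that partners can be set side by side. They are from RefSeq, GRCm38.p6, each 5′ to 3′ on the strand of its gene, with every CG dinucleotide in capitals. The windows of Dlx1, Gad1 and Gad2 lie inside the full span of their genes, which begins further upstream. The regions are chr2:71529195-71529444 on the plus strand for Dlx1, chr2:71546755-71547004 on the minus strand for Dlx2, chr2:70561879-70562128 on the plus strand for Gad1 and chr2:22622077-22622326 on the plus strand for Gad2.
Dlx1: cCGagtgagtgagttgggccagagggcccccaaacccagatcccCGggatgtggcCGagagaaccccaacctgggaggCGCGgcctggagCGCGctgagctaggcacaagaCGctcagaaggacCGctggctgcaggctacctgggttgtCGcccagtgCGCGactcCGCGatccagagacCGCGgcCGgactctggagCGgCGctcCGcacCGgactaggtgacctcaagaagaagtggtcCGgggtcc
Dlx2: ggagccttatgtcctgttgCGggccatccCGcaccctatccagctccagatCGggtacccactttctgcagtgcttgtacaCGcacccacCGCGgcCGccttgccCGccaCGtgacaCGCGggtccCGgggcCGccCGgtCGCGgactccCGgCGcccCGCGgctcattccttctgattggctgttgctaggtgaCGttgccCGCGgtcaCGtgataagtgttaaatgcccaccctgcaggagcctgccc
Gad1: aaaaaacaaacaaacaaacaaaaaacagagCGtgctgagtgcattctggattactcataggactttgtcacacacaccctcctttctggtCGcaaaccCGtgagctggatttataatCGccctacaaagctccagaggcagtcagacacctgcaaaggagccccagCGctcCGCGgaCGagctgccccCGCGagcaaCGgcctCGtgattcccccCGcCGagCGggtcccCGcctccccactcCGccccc
Gad2: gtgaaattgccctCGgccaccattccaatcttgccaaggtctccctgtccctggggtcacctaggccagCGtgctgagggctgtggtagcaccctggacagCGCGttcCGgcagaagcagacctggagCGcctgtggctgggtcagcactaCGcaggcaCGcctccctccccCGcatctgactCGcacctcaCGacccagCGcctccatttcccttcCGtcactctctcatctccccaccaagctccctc

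All of these windows were rich in CG dinucleotides. The Dlx1 window held 22 and the Dlx2 window 24, with a GC content of 68.0% and 66.4%, and the windows of Gad1 and Gad2 held 17 and 13, with 58.0% and 64.0%. The median over the 32851 promoter windows of all genes was 6 CG dinucleotides and a GC content of 52.4%. RefSeq windows were found for 9 of the 10 genes (17 windows, since some genes have several starts). The homeodomain core TAATTA was present in 4.84% of all windows and in 1 of the 17 windows of these genes, that of Sp8. The letters TATAAA, or TTTATA on the other strand, stood in 12.4% of all windows and in 2 of the 17, of Gad1 and Sp8. GGGCGG, or CCGCCC, stood in 32.7% of all windows and in 7 of the 17. Those 7 windows belong to 6 of the 9 genes (Dlx2, Gad1, Lhx6, Nkx2-1, Satb1 and Sp8). A match of letters does not show that a factor binds there.

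Dlx1, a homeodomain factor of eminence progenitors and of the interneurons they make, had the largest change of the 10 genes. Its intensity was 837, 1154, 824 and 1156 in mutants 1 to 4, and 31.9, 58.5 and 121 at the lowest, the median and the highest of the 9 controls. No mutant came near the controls, the highest of which was control 9. The mean of the mutants was 993 ± 187 (SD, n = 4) and that of the controls 59.7 ± 29.0 (SD, n = 9). The log2 fold change was 3.80 (standard error 0.23, limma adjusted p = 8.12e-10). This is a 14.0-fold rise with a 95% confidence interval of 9.93 to 19.6, and placed Dlx1 at rank 10 of the 19938 genes by log2 fold change.

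Dlx2, its neighbour and partner in the eminences, had an intensity of 248, 183, 151 and 167 in mutants 1 to 4 and of 72.2, 116 and 173 at the lowest, the median and the highest of the controls. Mutants 3 and 4 lay below the highest control, so the groups overlapped. The means were 187 ± 42.5 (SD, n = 4) and 124 ± 34.1 (SD, n = 9), a log2 fold change of 0.56 (standard error 0.19) that narrowly missed the threshold (limma adjusted p = 0.0512) and corresponds to 1.47-fold with an interval of 1.12 to 1.93. The call of Dlx2 depended on the processing: it passed in 15 of 29 alternatives, with adjusted p from 0.0101 to 0.362.

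Dlx5, which acts downstream of Dlx1 and Dlx2 in the subventricular zone of the eminences, rose almost as much as Dlx1. The mutants read 511, 588, 469 and 600.2, and the controls ran from 15.8 over a median of 45.1 to 66.7. The dimmest mutant was thus far above the brightest control. The log2 fold change was 3.26 (standard error 0.22, limma adjusted p = 2.35e-09), or 9.56-fold with an interval of 6.93 to 13.2. Dlx6, which lies beside Dlx5 on chromosome 6 with 0 protein-coding genes between them, had a log2 fold change of 0.24 (standard error 0.35, limma adjusted p = 0.879), with 49.2 to 157 in mutants and 17.6 to 133 in controls. Dlx6 is named after its value was seen.

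**Figure D1:**
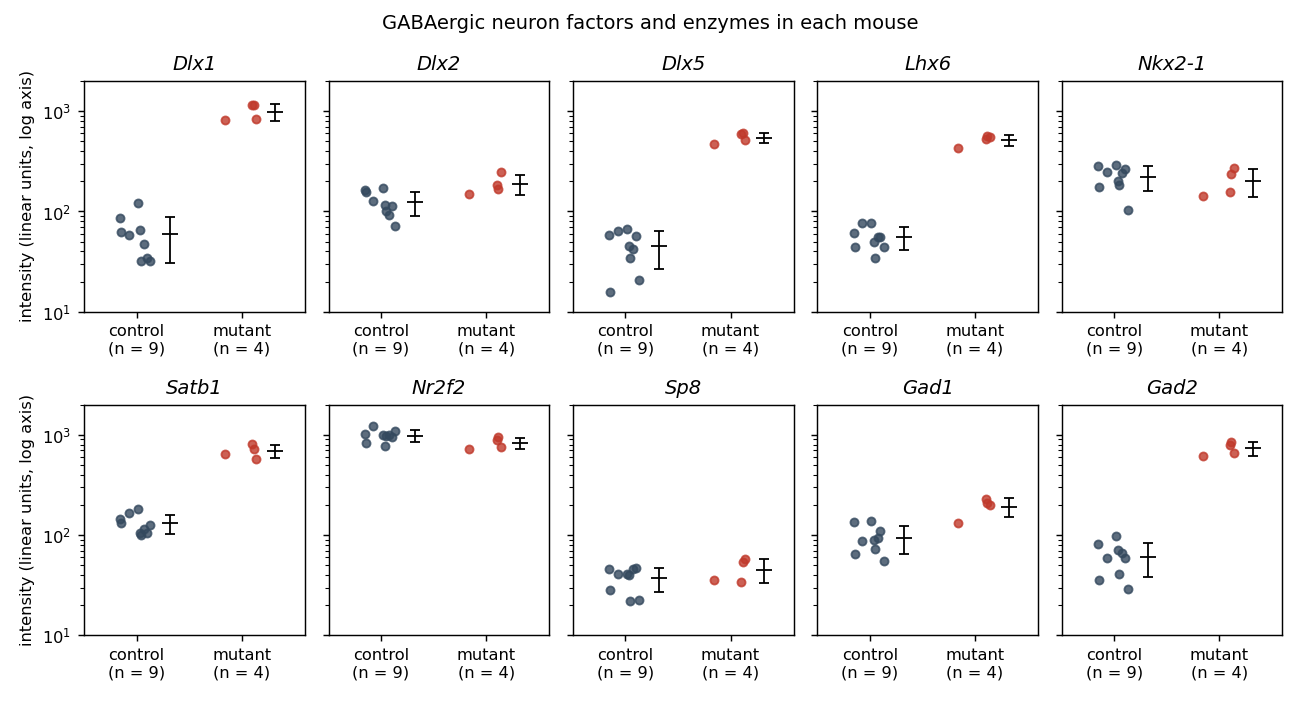
Intensity of each of the 10 genes (log axis) in each of the 4 mutants and 9 controls, with 1 point per mouse and, beside the points, the group mean with a bar of 1 SD to each side. Dlx1, Dlx5, Lhx6, Satb1 and Gad2 have all mutants above all controls, and the groups overlap for Dlx2, Nkx2-1, Nr2f2, Sp8 and Gad1.

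Lhx6 is the LIM-homeodomain factor that interneurons of the medial eminence keep after they leave it. It had the smallest adjusted p of the 10 genes. Its intensity was 555, 523, 427 and 562 in the mutants, against 34.0, 55.4 and 77.1 at the lowest, the median and the highest of the controls. The groups did not overlap. The log2 fold change was 2.92 (standard error 0.16, limma adjusted p = 2.33e-10), a 7.56-fold rise with an interval of 6.01 to 9.51. Satb1, a chromatin organiser needed by medial eminence interneurons as they mature, had 577, 808, 640.5 and 728 in the mutants and 99.4, 126 and 181 at the lowest, the median and the highest of the controls, again without overlap. It rose 4.85-fold (interval 3.87 to 6.06), with a log2 fold change of 2.28 (standard error 0.15, limma adjusted p = 2.35e-09).

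Nkx2-1, which specifies the medial eminence and is switched off in most interneurons bound for the cortex, behaved otherwise. Its intensity was 274, 156, 142 and 238 in the mutants and 103, 243 and 288 at the lowest, the median and the highest of the controls, so the mutants lay within the range of the controls. The log2 fold change was -0.11 (standard error 0.22, limma adjusted p = 0.933). The interval of the fold, from 0.672 to 1.27, does not include the changes of Lhx6 or Satb1. Among the controls, Nkx2-1 was lowest in control 6 (103, array median 44.09) and highest in control 9 (288, array median 89.01). Whether its probe set read Nkx2-1 RNA above background was not tested, so the interval describes the probe set. Nkx2-1 is also a gene of the hypothalamus and preoptic area, the thyroid and the lung, and these lists of other genes were given the same test. None of 11 measured hypothalamic and preoptic genes passed in either direction (0 by limma, also at an unadjusted p under 0.05, and 0 by the tests with equal and with unequal variances), and of 7 thyroid and lung genes 1 fell, the iodide transporter Slc5a5 (1.80-fold lower, limma adjusted p = 0.00319). It was likewise not tested whether the probe sets of these lists read RNA above background.

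Nr2f2 and Sp8, the genes linked with caudal and lateral eminence interneurons, did not pass the test either. Nr2f2, a nuclear receptor that is also expressed in vessels and mesenchyme, was bright in both groups, with 753, 896, 730.3 and 949 in the mutants and 773, 989 and 1221 at the lowest, the median and the highest of the controls. Mutants 1 and 3 lay below every control and the others within their range, and the log2 fold change was -0.23 (standard error 0.13, limma adjusted p = 0.342; fold interval 0.701 to 1.03). Only under quantile normalization, 1 of 29 alternatives, was it called as a fall (-0.20, limma adjusted p = 0.0219). Sp8, a zinc finger factor, had 57.9, 34.2, 35.4 and 53.9 in the mutants and 22.1, 40.6 and 46.9 at the lowest, the median and the highest of the controls. Mutants 1 and 4 were above all controls and the other two were below their median. Its log2 fold change was 0.21 (standard error 0.17, limma adjusted p = 0.587; fold interval 0.908 to 1.48). Other genes of caudal eminence interneurons, named after their values were seen, differed among themselves. Htr3a, which encodes the ionotropic serotonin receptor subunit, rose 6.80-fold (limma adjusted p = 7.17e-10) and Prox1 1.55-fold (0.00564). Vip, the gene of vasoactive intestinal peptide, had 15.5 to 48.5 in mutants and 13.5 to 52.1 in controls, a log2 fold change of -0.16 (limma adjusted p = 0.884). Sp9 and Nr2f1, the close relatives of Sp8 and Nr2f2 and likewise named after their values were seen, did not pass, at log2 fold changes of 0.03 (limma adjusted p = 0.992) and 0.36 (0.0853).

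The enzymes Gad1 and Gad2 both rose, to different degrees. Gad2 had 664, 799, 614 and 856 in the mutants and 29.2, 59.4 and 98.7 at the lowest, the median and the highest of the controls, which did not overlap. The log2 fold change was 3.34 (standard error 0.21, limma adjusted p = 8.06e-10), a 10.1-fold rise with an interval of 7.52 to 13.6. Gad1 had 201, 228, 131 and 211 in the mutants and 55.6, 90.0 and 139 at the lowest, the median and the highest of the controls. Mutant 3 read lower than controls 4 and 9, at 136 and 139, and the other mutants were above all controls. Gad1 rose 1.92-fold (interval 1.44 to 2.56), with a log2 fold change of 0.94 (standard error 0.20, limma adjusted p = 0.0019).

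The differences within the pairs were taken per mouse, as the log2 value of one gene minus that of its partner, relative to the mean of the same quantity in controls. These 4 comparisons were chosen after the values were seen, so they are given as a description with no test. Dlx1 minus Dlx2 lay between 2.63 and 3.62 in the mutants and between -0.42 and 0.47 in the controls, a difference in log2 change of 3.25 (standard error 0.24). Gad2 minus Gad1 lay between 2.19 and 2.64 in the mutants and between -0.21 and 0.27 in the controls, a difference of 2.40 (standard error 0.11). Dlx5 minus Dlx2 gave 2.70 (standard error 0.23), also with no mutant in the range of the controls. Dlx1 minus Dlx5 lay between 0.40 and 0.66 in the mutants and between -0.84 and 0.99 in the controls, so the mutants lay within the range of the controls, with a difference of 0.55 (standard error 0.19). The differences are between probe sets, and whether both probe sets of a pair respond equally to equal changes of RNA was not tested.

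**Figure D2:**
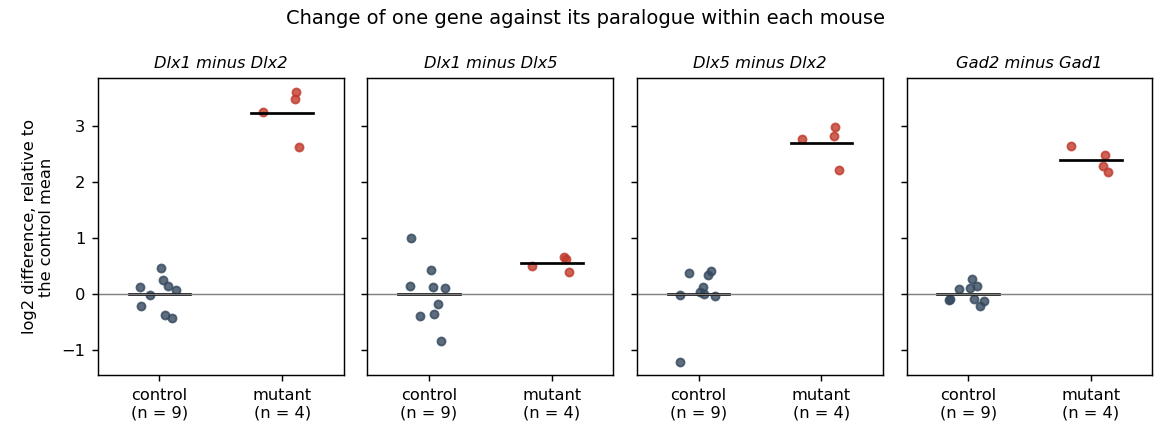
Difference in log2 level between the genes of a pair in each mouse, relative to the mean of the controls, for the 4 mutants and the 9 controls, with a line at the mean of each group. The mutants lie apart from all controls for Dlx1 minus Dlx2, Dlx5 minus Dlx2 and Gad2 minus Gad1, and within the range of the controls for Dlx1 minus Dlx5.

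The mice of a group varied together over these genes. Control 9 was the highest control for 8 of the 10 genes, the lowest control was control 1, 3 or 6 for 9 of them, and mutant 3 was the lowest mutant for 8. The arrays of controls 6, 3 and 1 and of mutant 3 also had the lowest median intensities of the 13, at 44.09, 51.76, 52.86 and 56.01. The 6 rises remained called without these 4 arrays. A scaling that centres the arrays adds the same shift to every gene, which turned signs and calls only among the small changes. When each array was centred on reference genes or, separately, on genes of meningeal fibroblasts, the median of all genes moved to 0.18 and 0.30, Dlx2 was called as a rise (0.73 and 0.85, limma adjusted p = 0.0351 and 0.0101), and Nkx2-1 turned to 0.06 and 0.18. Nr2f2 turned to 0.06 with fibroblast centring, and neither of these genes passed the test there. The genes used for centring were not all unchanged in the values as deposited. Of the 16 fibroblast genes 3 rose and 5 fell, with a median of -0.23. Of the 8 reference genes 0 rose and 2 fell, with a median of -0.06.

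**Figure D3:**
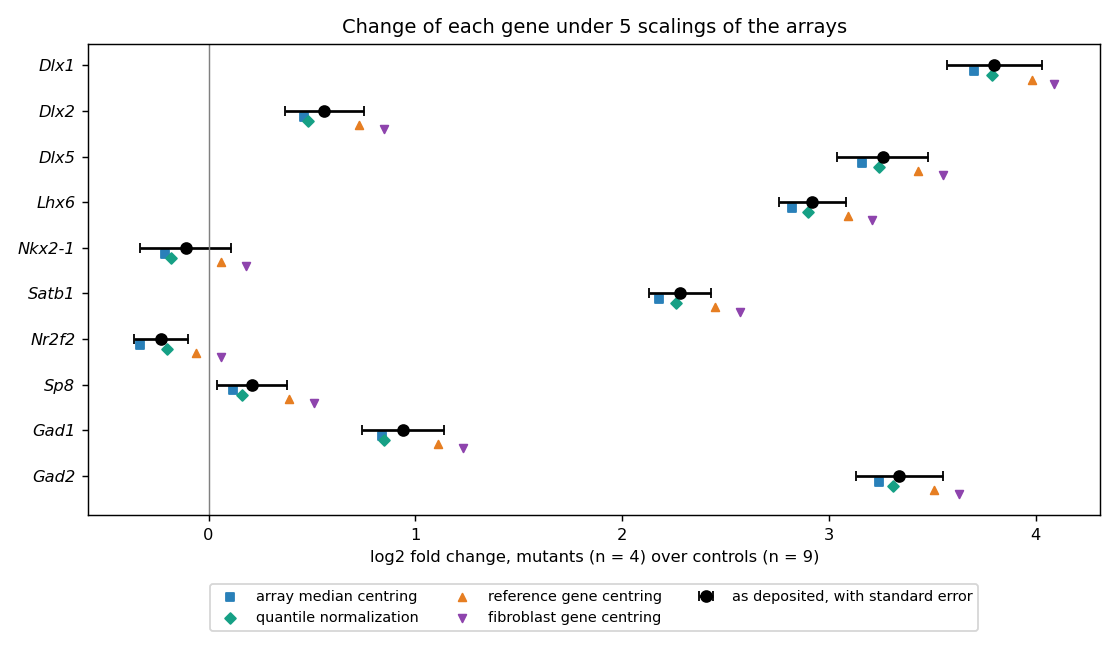
Log2 fold change of each gene, mutants (n = 4) over controls (n = 9), with the values as deposited (black, bar 1 standard error) and under 4 other scalings of the arrays (coloured). Dlx1, Dlx5, Gad2, Lhx6 and Satb1 stay above 2 in each, and the markers of Nkx2-1 and Nr2f2 lie on both sides of 0.

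Further genes linked with interneurons were taken from lists written by hand, and which cells their RNA came from was not tested. Of 10 measured transcription factors of migrating interneurons that are not among the genes above, 6 rose and 0 fell (median log2 fold change 0.66; 0 fell at an unadjusted p under 0.05 and by tests with equal or unequal variances, the last of which called 3 rises). Lmo3, a LIM-only cofactor, rose 21.6-fold (limma adjusted p = 7.5e-09), from 108 at the median of the controls to between 2185 and 3664 in the mutants. Npas3, a bHLH-PAS factor, rose 3.72-fold (6.66e-09), Sox6, which acts downstream of Lhx6, 2.92-fold (5.35e-07), and Zeb2, which directs interneurons to the cortex, 1.84-fold (8.01e-05). The summed intensity of the list ran from 5462 to 7201 in mutants and from 1917 to 2867 in controls.

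Of 18 genes of interneuron subclasses and migration, 10 rose and 0 fell (median 0.57; 0 fell at an unadjusted p under 0.05). Sst, the peptide of somatostatin interneurons, rose 26.5-fold (limma adjusted p = 8.43e-12), and Npy and Reln, the genes of neuropeptide Y and the secreted glycoprotein reelin, rose 13.6- and 13.8-fold. Cck, the gene of cholecystokinin, had a log2 fold change of 4.17 (limma adjusted p = 2.4e-12), with 3061 to 5312 in mutants and 181 to 280.5 in controls. Sst ranged from 1832 to 2874 in the mutants and from 39.1 to 109 in the controls. Nxph1, the gene of the secreted neurexin ligand neurexophilin, was 14.5-fold higher (limma adjusted p = 5.13e-10), while the peptide genes Tac1 and Cort had log2 fold changes of 0.31 and 0.06 and did not pass (0.752 and 0.981); these are named after their values were seen. Cck and Reln are not specific to interneurons, and Reln is also made by Cajal-Retzius cells of the cortical surface. The summed intensity ran from 12625 to 16545 in mutants and from 2219 to 3406 in controls.

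Genes on the list of GABA synthesis, release and uptake, which also holds glutamine transporters, moved in both directions. Of 10 measured, 5 rose and 3 fell (median 0.28). Slc32a1, the vesicular transporter that loads GABA, rose 4.94-fold (limma adjusted p = 3.06e-08), from 125 at the median of the controls to between 534 and 702 in the mutants. Gphn, the scaffold of inhibitory synapses, rose 1.53-fold (0.00155), Slc38a1, a glutamine transporter, 1.43-fold (0.00638) and Slc12a5, the neuronal chloride exporter KCC2, 1.69-fold (0.00826). The genes that fell were the glutamine transporters Slc38a5 (3.23-fold lower, limma adjusted p = 4.41e-06) and Slc38a3 (2.15-fold, 3.49e-05) and the GABA transporter Slc6a13 (2.11-fold, 4.92e-05), which is also on the list of meningeal fibroblast genes. With the Xist level as a covariate, 2 genes of the list rose in place of 5.

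No gene of the eminence progenitors passed the test. Of 9 measured progenitor and patterning genes (Gsx1, Gsx2, Nkx6-2, Olig2, Lhx8, Shh, Gli1, Ptch1 and Fgf15), 0 rose and 0 fell by limma, 0 passed at an unadjusted p under 0.05, and the tests with equal and with unequal variances called 0 as well. Their log2 fold changes lay between -0.14 and 0.08 (median 0.03), the groups overlapped for each, and the summed intensity ran from 780 to 1300.5 in mutants and from 775 to 1415 in controls. Their means in controls ran from 48.5 for Nkx6-2 to 357 for Fgf15, and the array medians from 44.09 to 89.65. Whether these probe sets read RNA above background was not tested, so the lack of calls describes the probe sets. Of 14 genes of the lateral eminence and striatum 1 rose, Meis2 (3.17-fold, limma adjusted p = 5.44e-07), and 1 fell, Ebf1 (1.53-fold lower, 0.0356), with a median of -0.04. The 9 progenitor genes gave 0 calls under each of the 4 other scalings too, while their median ran from -0.07 to 0.32, and the lateral eminence list had 5 rises and 0 falls with fibroblast gene centring and 1 rise and 3 falls under quantile normalization. The striatal genes Drd1, Drd2, Penk and Ppp1r1b had log2 fold changes of -0.08, -0.24, -0.15 and -0.14, and none of them passed; they are named after their values were seen.

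**Figure D4:**
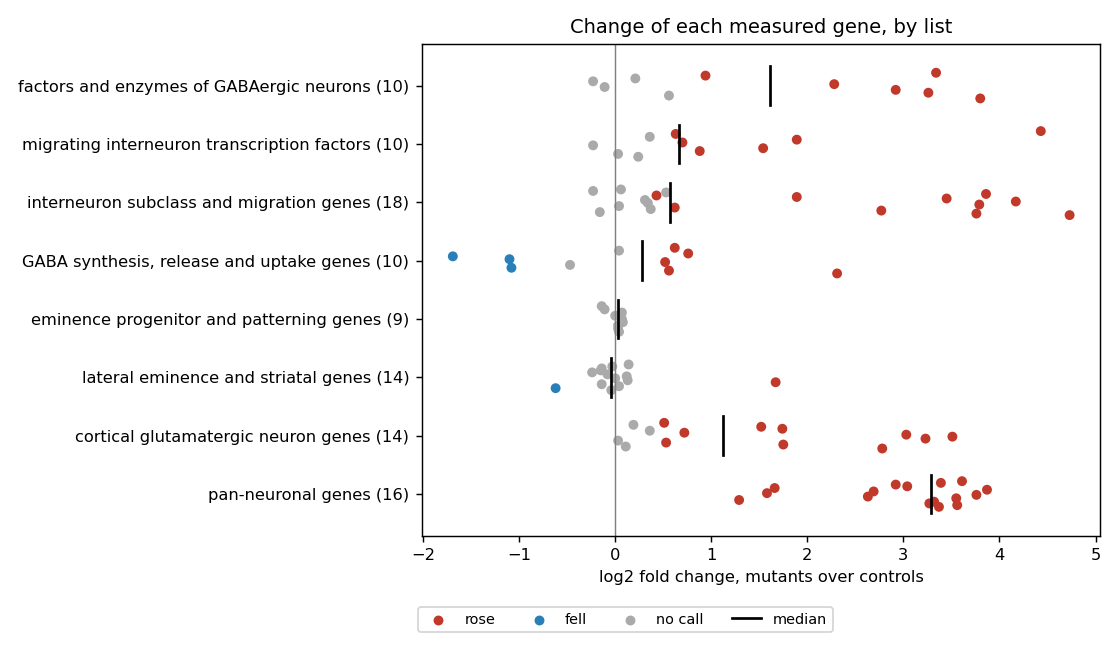
Log2 fold change, mutants over controls, of each measured gene in 8 lists (number of genes in parentheses), coloured by its call, with a line at the median of each list. The 10 genes described first (top row) have a median of 1.61, the eminence progenitor genes one of 0.03 that changes sign with the scaling of the arrays, and the pan-neuronal genes one of 3.29.

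Genes of other cells changed beside the interneuron genes, and their part in the changes above was not tested. All 16 pan-neuronal genes rose, with a median of 3.29: Nefl, a neurofilament, rose 13.6-fold, Snap25, a protein of synaptic vesicle fusion, 11.8-fold, Stmn2 9.97-fold and Rbfox3 2.45-fold. Their summed intensity was 16709 to 20457 in the mutants and 1612, 2335 and 4819 at the lowest, the median and the highest of the controls, the last in control 9. Of 14 genes of cortical glutamatergic neurons 10 rose and 0 fell (median 1.12; 0 fell at an unadjusted p under 0.05), with Bcl11b 11.4-fold, Fezf2 8.18-fold, Neurod6 9.36-fold and Tbr1 6.89-fold higher, while Slc17a7, the vesicular glutamate transporter, had a log2 fold change of 0.11 (limma adjusted p = 0.878). The summed intensity ran from 3395 to 4730 in mutants and from 730.4 to 1943 in controls. Of 12 endothelial genes 9 fell and 0 rose (median -0.82; 0 rose at an unadjusted p under 0.05), with sums from 5995 to 7917 in mutants and from 9164 to 19202 in controls. Aplnr, the apelin receptor, was 3.96-fold lower and Kdr, a receptor of vascular endothelial growth factor, 1.90-fold lower, while the defining genes Pecam1 and Cdh5 had log2 fold changes of -0.28 and -0.29 and did not pass (limma adjusted p = 0.515 and 0.213). When the fit took the Xist level into account, 2 of these 12 fell in place of 9, with a median of -0.76, and 6 fell with the replicate number as a block. Of 16 meningeal fibroblast genes, which define the labelled tissue, 3 rose and 5 fell (median -0.23), with sums of 28698 to 43191 and 35216 to 46683. Of 10 genes of astrocytes and radial glia 0 rose and 2 fell (2 and 2 at an unadjusted p under 0.05), but 3 rose and 2 fell under quantile normalization, 4 and 1 with reference gene centring, and 6 and 1 with fibroblast gene centring. Of 8 olfactory bulb genes 1 rose and 1 fell, and of 8 reference genes 0 rose and 2 fell (0 and 3 at an unadjusted p under 0.05).

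Like Nkx2-1, others of the 10 genes are expressed outside neurons. Dlx5 is also a gene of bone-forming cells, and of 8 bone and skull genes 0 rose and 1 fell (1 and 1 at an unadjusted p under 0.05; 2 and 0 with fibroblast gene centring), with sums from 722 to 1132 in mutants and from 725 to 1172 in controls. Satb1 is also a gene of T cells, and none of 9 T cell genes passed in either direction (0 by limma, 0 at an unadjusted p under 0.05 and 0 by tests with equal or unequal variances), with sums from 308 to 546 in mutants and from 281 to 602 in controls. Under quantile normalization 2 T cell genes and 2 hypothalamic and preoptic genes fell, and 1 of each with array median centring. Nr2f2 is also a gene of lymphatic endothelium. Of 6 measured lymphatic genes 3 fell, Lyve1 (5.46-fold lower), Mmrn1 (5.38-fold lower) and Flt4 (1.5-fold lower), and 2 rose, Reln and Prox1. Both genes that rose are also on the interneuron lists above. The sums ran from 2876 to 4063 in mutants and from 2796 to 4033 in controls. Reln entered these sums with 1697 to 2016 in mutants and 73.4 to 193 in controls. Lyve1 entered them with 226 to 645 in mutants and 1353 to 1983 in controls.

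The genes most like Lhx6 and Gad2 over the 13 mice were found by the root mean square difference of log2 levels, each gene taken relative to its own mean in controls. For Lhx6 these were Ank3 (0.143), Ncald (0.160), Dpp10 (0.179) and Ly6h (0.183), and the nearest of the other 9 genes was Dlx5, at rank 96 (0.326). For Gad2 these were Psd (0.174), Agap2 (0.197), Erbb4 (0.199) and Dlx5 (0.207). By this measure Dlx5 was thus nearer to Gad2 than all but 3 of the genes tested. The log2 fold changes of Psd, Agap2, Erbb4 and Dlx5 were 3.25, 3.22, 3.45 and 3.26, close to the 3.34 of Gad2. The 13 mice share 1 litter, and the difference between the groups enters this measure along with the variation within them.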

How the data were processed

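Meningeal RNA of 13 mice, 4 mutants and 9 controls, was measured, 1 array per mouse. The authors made the deposited values, intensities on a linear scale, with PLIER; its version, background step and scaling between arrays are not given in the sources used here. Array medians lay between 44.09 and 89.65, so the values were not of 1 distribution. Arrays have no read depth, and their number limits the precision. Of 35557 probe sets, 21789 carry 1 gene symbol in the platform table, 1621 several, and 12147 are not listed there; 21698 were matched to RefSeq by gene ID, which changed 0 symbols. The brightest probe set stood for a gene with several (999 genes). The values were compared as log2(intensity + 16) with limma 3.58.1 (lmFit and eBayes) in R 4.3.3, with Benjamini-Hochberg adjustment, and the procedure was tested on simulated data. Mice of 1 litter are separate animals, but not separate litters. Pairs of genes were described per mouse in Python 3.11.15, with no test, and figures were drawn with matplotlib 3.10.9.

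The 10 genes, the 17 lists of other genes and the tests were chosen with earlier results of these data known. Named were the 10 genes and the 4 genes most like Lhx6 and Gad2. Of each list of interneuron and eminence genes, up to 4 genes per direction with the smallest adjusted p were named. From the lists of other cells, up to 2 genes per direction and the defining genes were eligible, but not all were named. Other genes are marked as named after their values were seen. Alternatives were constants of 1 and 32, quantile normalization, centring on array medians, reference genes or fibroblast genes, leaving out the dimmest 25% or 50% of genes, the 4 dimmest arrays or each mouse, trend and robust variances, array quality weights, tests with equal and unequal variances, Xist as a covariate and the replicate number as a block. Same-numbered mice did not deviate together (correlations of -0.34, 0.16, 0.31 and -0.09), so a shared number was not taken as a pair.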

Additional observations from a re-analysis of the deposited data

How the results depend on the processing

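The rises of Dlx1, Lhx6, Satb1, Gad1 and Gad2 remained called in 29 of 29 alternatives, and that of Dlx5 in 28 of 28, since it is not among the genes left without the dimmest 50%. The number of the 10 genes that rose was 6 or 7 throughout, and 0 fell except 1 (Nr2f2) under quantile normalization; leaving out each mouse gave 6 to 7 and 0. Nkx2-1 changed sign with reference gene centring (0.06), fibroblast gene centring (0.18) and without mutant 3 (0.03, in a range from -0.26 to 0.03 without each mouse), Nr2f2 with fibroblast gene centring (0.06) and Sp8 with array quality weights (-0.03), all without a call. Dlx2 was called in 15 of 29 alternatives, among them without mutant 3 or control 3, 4 or 9 (adjusted p = 0.0482, 0.0357, 0.033 and 0.0263); the cause was not tested. Over all genes, 2668 rose and 3617 fell under quantile normalization, 2862 fell with array median centring, 3164 rose and 767 fell with reference gene centring, 5838 rose and 623 fell with fibroblast gene centring, 2023 fell with array quality weights, 1139 rose and 400 fell with unequal variances, 605 fell with Xist as a covariate, and 1331 to 1904 rose and 777 to 1490 fell without each mouse, in place of 1710 and 1258. The replicate block gave 1284 rises and 545 falls and 6 rises among the 10 genes, and Dlx2 at 0.40 (adjusted p = 0.362); no mutant carries the numbers of controls 5 to 9. Without each mouse, Dlx1 minus Dlx5 ran from 0.44 to 0.67, Dlx1 minus Dlx2 from 3.12 to 3.45, Dlx5 minus Dlx2 from 2.55 to 2.86 and Gad2 minus Gad1 from 2.32 to 2.47; the last was 2.60 with a constant of 1. The methods' t-test, at their fold of 2 and p, called 5 of the 10 genes and 812 genes in all, and the same number of the 10 after Benjamini-Hochberg adjustment.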
